A study of Mus musculus with 60 samples.

Results

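Hedgehog signalling was followed in the developing mouse brain through 9 genes of its core route: the ligand Shh, the receptor Ptch1, the signal transducer Smo, the co-receptors Gas1, Boc and Cdon, and the transcription factors Gli1, Gli2 and Gli3. They were taken by symbol from the 24378 features of the deposited table, and all 9 were found. RNA was sequenced from bulk tissue of mouse embryos of 4 ages, E11.5 and the 3 days that follow it, up to E14.5 (E, days after mating). At each stage 5 regions were dissected, the ventral midbrain, ventral forebrain, ventral hindbrain, alar plate and dorsal midbrain, with 3 libraries per region and stage (60 libraries, 20 groups). All embryos had the genotype TH-GFP, a reporter transgene whose fluorescence was used to guide dissection, and no group lacks it. The ventral midbrain pieces held floor plate and basal plate. The labels give no treatment and name no cell sort, and they do not state from which part of the brain the alar plate pieces came. Whether the 3 libraries of a region and stage were made from different embryos is not stated, so every p-value measures the spread between these libraries, which may be technical.

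Sonic hedgehog, the protein made from Shh, is secreted by the floor plate and patterns the ventral neural tube. Without ligand, Ptch1 holds Smo inactive and the Gli factors, Gli3 above all, act as repressors. Ligand binding releases Smo, Gli2 then acts mainly as an activator, and Ptch1 and Gli1 are transcribed as targets of the pathway. Gas1, Boc and Cdon bind the ligand at the cell surface, and their genes are known to be turned down where the signal is strong. In the ventral midbrain this pathway takes part in setting up the progenitors of dopaminergic neurons.

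In the mm10 genome (GENCODE vM21 annotation) Gli2 lies at chr1:118834132-119053619 on the minus strand, Shh at chr5:28456815-28467256 on the minus strand, and Smo at chr6:29735503-29761365 on the plus strand. Cdon lies at chr9:35421128-35507652 on the plus strand and Gli1 at chr10:127329882-127341974 on the minus strand. Chromosome 13 holds 3 of the genes: Gli3 at chr13:15463235-15730026 on the plus strand, Gas1 at chr13:60174405-60177365 and Ptch1 at chr13:63508328-63573598, both on the minus strand. Boc lies at chr16:44485049-44558897 on the minus strand.

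Gli2 with Gli3, and Boc with Cdon, are pairs of related genes whose reads could be mistaken for each other, so the longest identical stretch of their coding sequences (mm10, GENCODE vM21) is shown for each pair. The 25 shared bases of Gli2 and Gli3 lie in exon 10 of Gli2 (chr1:118846012-118846036) and exon 11 of Gli3 (chr13:15713529-15713553). The 31 shared bases of Boc and Cdon lie in exon 13 of Boc (chr16:44490592-44490622) and exon 13 of Cdon (chr9:35478644-35478674). Whole stretches are in capitals because all their bases are identical.
Gli2 and Gli3: AAGAAGGAGTTCGTGTGCCGCTGGC
Boc and Cdon: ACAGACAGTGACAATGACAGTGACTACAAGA
Coding lengths are 4632 bases for Gli2, 4749 for Gli3, 3330 for Boc and 3750 for Cdon. The longest run was 23 bases between Gli1 and Gli2 and 14 between Gli1 and Gli3. A read longer than these runs differs between the coding sequences of each pair. How the authors' counting treated reads that match more than 1 place, and on which strand it counted, is not given in the sources used here.

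Promoters were matched for 6 of the 9 genes (Gli2, Smo, Cdon, Gli3, Gas1 and Ptch1) in a RefSeq table (build GRCm38.p6). Those of Gli2 and Gas1, which were low together in ventral tissue, are shown: the 250 bases before each start, at chr1:119053620-119053869 and chr13:60177536-60177785, both read on the minus strand. Capitals mark a match with the fewest mismatches to the Gli binding motif TGGGTGGTC, searched on both strands. Where matches tied, only the first was marked, with the printed direction taken before the other, so others as close may stand unmarked.
Gli2: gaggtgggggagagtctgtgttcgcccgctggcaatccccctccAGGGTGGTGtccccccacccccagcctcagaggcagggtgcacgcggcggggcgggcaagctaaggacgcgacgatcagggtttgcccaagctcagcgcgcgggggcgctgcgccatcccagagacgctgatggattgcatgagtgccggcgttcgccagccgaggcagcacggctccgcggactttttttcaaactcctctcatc
Gas1: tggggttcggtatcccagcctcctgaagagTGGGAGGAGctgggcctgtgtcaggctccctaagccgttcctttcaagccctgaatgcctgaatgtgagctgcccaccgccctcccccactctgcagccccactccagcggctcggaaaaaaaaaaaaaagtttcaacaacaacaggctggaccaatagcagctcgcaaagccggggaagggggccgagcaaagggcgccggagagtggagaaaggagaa
The Gli2 window holds AGGGTGGTG, with 2 mismatches to the motif, and 51.8% of all promoters of that length hold a match as close. The Gas1 window holds TGGGAGGAG, with 3 mismatches, as close as in 98.56% of promoters. None of the 6 windows holds the motif itself, which stands in 74 of 32851 promoters (0.225%). This says only that these letters are not in these windows.

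Library totals, in units of 1000000 reads, were between 1.58 and 6.432 for the E11.5 libraries, 8.671 and 13.099 for those of E12.5, 4.973 and 23.582 for those of E13.5, and 0.979 and 6.13 for those of E14.5. Values are RPKM, reads per kilobase of transcript per 1000000 reads, so levels can be set side by side between genes. At E11.5, 8 of 15 libraries correlated more closely with another region of that stage than with their own: replicate 4 of the ventral midbrain, all 3 of the ventral forebrain, replicate 2 of the ventral hindbrain and all 3 of the alar plate. At E12.5 the 3 alar plate libraries did so, and at E13.5 and E14.5 no library did. Replicate 4 of the E11.5 ventral midbrain had a summed level of 13.1 RPKM over 5 ventral midbrain markers, where the other 2 libraries had 184 and 193. Replicate 2 of the E11.5 ventral forebrain had 190, and the other 2 ventral forebrain libraries 54.9 and 71.2. Whether these libraries hold another region than their label names was not tested, and the E11.5 values are to be read with that limit. From E12.5 on, the floor plate gene Foxa2 stood between 30.2 and 78.5 RPKM in the ventral midbrain and between 0 and 0.0405 in the dorsal midbrain. In the ventral forebrain the marker Nkx2-1 had a median of 48.3 RPKM. The libraries carry 5 name prefixes, whose meaning the labels do not give. E12.5 shares none with E14.5, so stage and prefix cannot be told apart in that comparison. The dorsal midbrain at E11.5 shares its prefix with the ventral forebrain, ventral hindbrain and alar plate at E14.5. Region and prefix cannot be told apart in the comparison of ventral with dorsal midbrain at E11.5 and in that of the ventral midbrain with its ventral neighbours at E14.5. In bulk tissue, fewer cells of a type and less RNA per cell cannot be told apart either.

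By group mean Shh was highest in the ventral midbrain at every stage, lower in the ventral hindbrain and ventral forebrain, and close to 0 in the dorsal midbrain. At E12.5 the 3 ventral midbrain libraries held 53.9, 50.0 and 53.8 RPKM, against 19.8 ± 7.98 (mean ± SD, n = 3, highest 28.8) in the ventral hindbrain and 3.21, 4.97 and 15.5 in the ventral forebrain. The alar plate held 0.193, 0.0908 and 2.24 RPKM and the dorsal midbrain 0.0649, 0.0307 and 0.0651. The ventral midbrain libraries lay above all others of that stage. The ventral hindbrain and ventral forebrain ranges overlapped.

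The mean of Shh in the ventral midbrain was 52.6 ± 2.24 RPKM (SD, n = 3) at E12.5, 34.8 ± 4.92 at E13.5 and 18.1 ± 7.17 at E14.5, lower at each later stage. The single libraries were 31.0, 33.0 and 40.3 at E13.5 and 10.9, 25.3 and 18.2 at E14.5, so the 3 stages did not overlap. In the ventral forebrain the mean was 7.91 ± 6.66, 11.8 ± 4.65 and 11.2 ± 4.98 RPKM at these stages, and in the ventral hindbrain 19.8 ± 7.98, 11.2 ± 2.21 and 9.8 ± 8.65 (SD, n = 3). Both sets overlap from stage to stage. The summed level of 7 progenitor markers in the ventral midbrain was lower at E14.5 too, being 1460 to 1690 RPKM at E12.5 and 1170 to 1400 at E14.5, and its part in the result was not tested.

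At E11.5 Shh was uneven within regions. The ventral midbrain libraries held 118, 12.8 and 79.7 RPKM, the lowest being replicate 4, whose region markers were low. The ventral forebrain held 90.6, 36.3 and 55.2, and the ventral hindbrain 0.151, 12.1 and 33.1. Alar plate replicate 2 held 18.6 RPKM, where the other alar plate libraries held 0.229 and 0. At E14.5 ventral hindbrain replicate 2 held 0.67 RPKM against 17.9 and 10.9 in the other 2. Its summed level of 4 dorsal markers was 103 RPKM against 22.4 and 15.6, and its part in the low Shh value was not tested.

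In the dorsal midbrain no library held more than 5 reads of Shh. A fitted fold against so low a level depends on the pseudocount (the value added before taking logs, here 1 RPKM) and is not a bound. On the log2(RPKM + 1) scale Shh was higher in the ventral midbrain by 5.67 ± 0.47 (SE) at E12.5, 5.02 ± 0.23 at E13.5 and 4.13 ± 0.64 at E14.5. The limma adjusted p-values were 5.2e-06, 4.74e-09 and 0.000286, in 3 of 3 libraries each time. With a pseudocount of 0.1 the E12.5 value of Shh was 8.43. At E11.5 the difference was 5.65 ± 1.26 with an adjusted p of 0.0541, and without ventral midbrain replicate 4 it was 6.59 with an adjusted p of 0.0324.

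**Figure D1:**
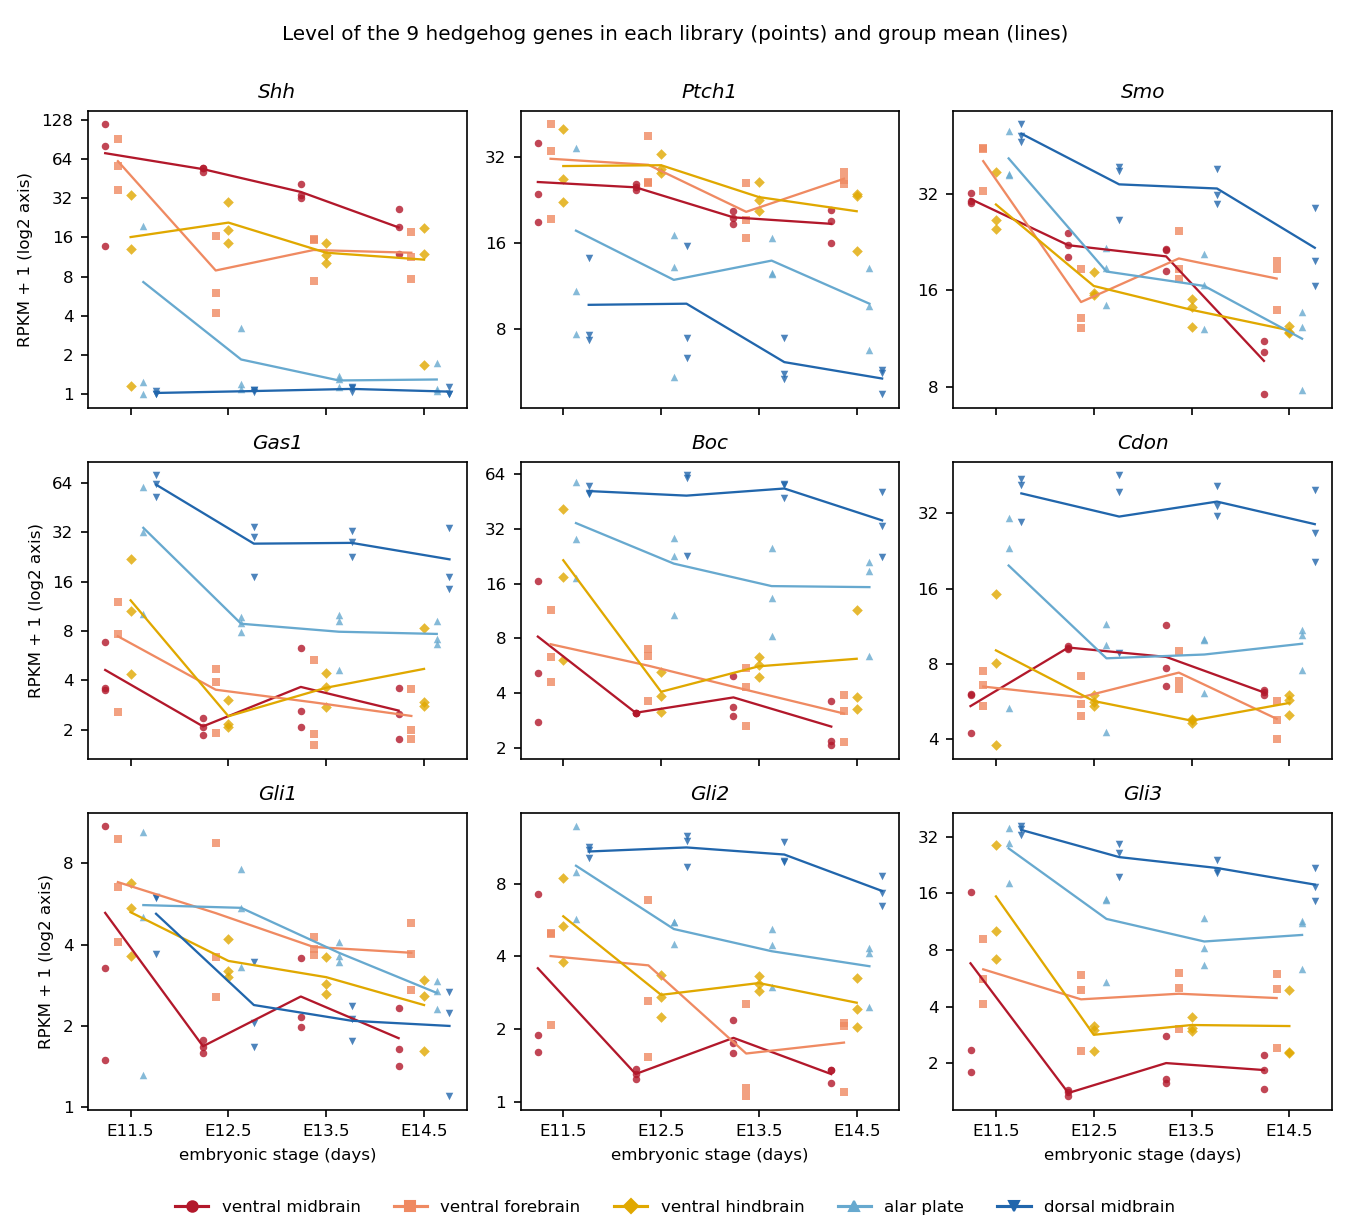
RPKM of each of the 9 genes (vertical axes) in every library by embryonic stage in days (horizontal axes), with points for libraries and lines through the means of the 3 libraries of a region. The Shh mean in the ventral midbrain is 52.6 at E12.5 and 18.1 at E14.5, while Gli3, Gas1, Boc and Cdon are highest in the dorsal midbrain at each stage.

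Ptch1, the receptor and a target of the pathway, was higher in the ventral midbrain than in the dorsal midbrain from E12.5 on. Between the ventral midbrain and its ventral neighbours it differed by -0.25 ± 0.33 at E12.5 (SE, log2 scale, limma adjusted p = 0.803). At E12.5 the ventral midbrain held 23.5, 24.8 and 24.1 RPKM, the ventral forebrain 37.0, 24.9 and 25.3, and the ventral hindbrain 31.9, 27.1 and 28.1. The dorsal midbrain held 6.44, 5.34 and 14.7 and the alar plate 16.1, 12.2 and 4.43. No dorsal or alar plate library reached the lowest ventral library. Even where Shh was at 0.0307 to 0.132 RPKM, in the dorsal midbrain at E12.5 and E13.5, Ptch1 kept a level of 4.36 to 14.7 RPKM.

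Against the dorsal midbrain, Ptch1 was higher in the ventral midbrain by 1.47 ± 0.38 (SE, log2 scale, limma adjusted p = 0.0146) at E12.5. Without ventral midbrain replicate 2 or dorsal midbrain replicate 1 or 2, the adjusted p for Ptch1 was 0.0507, 0.0695 or 0.0746. The difference was 1.7 ± 0.17 (adjusted p = 3.94e-06) at E13.5 and 1.79 ± 0.21 (adjusted p = 4.55e-05) at E14.5. Dorsal midbrain libraries at E14.5 held 4.75, 4.62 and 3.74 RPKM and ventral midbrain libraries 18.2, 19.9 and 15, with no overlap. Ptch1 in the ventral midbrain averaged 24.1 ± 0.682 RPKM at E12.5 and 17.7 ± 2.49 at E14.5 (SD, n = 3).

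Smo, which carries the signal into the cell, had its highest level in the dorsal midbrain. At E12.5 the dorsal midbrain held 37.6, 36.6 and 25.4 RPKM and the ventral midbrain 23.1, 19.3 and 21.1. The difference was small, -0.61 on the log2 scale with a limma adjusted p of 0.0367, under the 2-fold limit used for calls. At E14.5 it was -1.15 ± 0.23 (SE, adjusted p = 0.00154). It fell under the limit, to -0.99 without ventral midbrain replicate 2 and -0.93 without dorsal midbrain replicate 4. Over the 5 regions Smo differed by -0.56 ± 0.09 between E14.5 and E12.5 (adjusted p = 3.45e-06), again under that limit.

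The co-receptors Gas1 and Boc ran opposite to the ligand. At E12.5 Gas1 stood at 29.0, 33.7 and 16.1 RPKM in the dorsal midbrain, 6.83, 7.96 and 8.76 in the alar plate and 1.07, 0.852 and 1.35 in the ventral midbrain. Boc stood at 59.6, 62.0 and 21.6 RPKM in the dorsal midbrain, 21.6, 27.5 and 9.75 in the alar plate and 2.11, 2.12 and 2.11 in the ventral midbrain. For both genes every dorsal midbrain library was above every ventral library of that stage. In the ventral forebrain and hindbrain Gas1 lay between 0.905 and 3.67 RPKM and Boc between 2.14 and 5.99.

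Gas1 was lower in the ventral than in the dorsal midbrain, with differences of -3.65 ± 0.31 (SE, log2 scale, limma adjusted p = 6.39e-06) at E12.5, -3.09 ± 0.47 (adjusted p = 0.000112) at E13.5 and -3.02 at E14.5 (adjusted p = 0.00016). For Boc the differences were -3.83 ± 0.42 (adjusted p = 4.73e-05), -3.85 (adjusted p = 1.49e-06) and -3.73 (adjusted p = 0.000111). These calls held when any single library was left out.

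At E12.5 Cdon differed from the other co-receptors in the order of its means within ventral tissue. In the dorsal midbrain it was high, at 38.0, 44.5 and 7.84 RPKM at E12.5. Among the ventral regions of that stage its level was highest in the ventral midbrain, at 8.45, 8.21 and 8.25 RPKM, where Shh was also highest. The ventral forebrain held 3.94, 4.55 and 6.15 and the ventral hindbrain 4.98, 4.62 and 4.44, all below the ventral midbrain. The difference from the mean of both was 0.7 on the log2 scale and did not pass the test (limma adjusted p = 0.446). This order was not the same at all stages or particular to Cdon. At E11.5 the ventral midbrain had the lowest Cdon mean of the ventral regions (4.42 RPKM). At E13.5 it had the highest ventral mean of both Cdon (7.53) and Gas1 (2.64), and at E14.5 that of Cdon (5.15), with overlapping libraries.

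Between ventral and dorsal midbrain, Cdon differed by -1.43 ± 0.5 (SE) at E12.5, with an adjusted p of 0.0536. Without dorsal midbrain replicate 3, the low library at 7.84 RPKM, it differed by -2.18 with an adjusted p of 0.000533. At E13.5 the difference was -2.1 (adjusted p = 5.64e-06) and at E14.5 -2.18 (adjusted p = 8.65e-06). The dorsal midbrain held 30.4, 40.3 and 33.2 RPKM at E13.5 and the ventral midbrain 10.4, 5.51 and 6.68, with no overlap.

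Mesenchymal markers (Col1a1, Col1a2, Foxc1 and Dcn, summed) moved with the co-receptors. Their sum was 35.0 to 62.0 RPKM in the dorsal midbrain and 3.13 to 3.84 in the ventral midbrain at E12.5. None of the 4 was at 0 in any midbrain library from E12.5 on. Dorsal midbrain replicate 2 at E14.5 had a sum of 2.4 RPKM, below all 3 ventral midbrain libraries (4.04 to 4.88). Its levels of Gas1 (13.4), Boc (21.5) and Cdon (19.4), and that of Gli3, were the lowest of its group and above every ventral midbrain library of that stage. Ventral midbrain replicate 4 at E13.5 had a mesenchymal sum of 178 RPKM, above the 30.7 to 44.3 of the dorsal midbrain. It held 5.29 RPKM of Gas1, against 1.06 and 1.58 in the other 2 libraries and at least 21.5 in the dorsal midbrain. It was also the highest of its group for Boc (4.0 against 2.01 and 2.36), Cdon (10.4 against 5.51 and 6.68) and Gli3 (1.79 against 0.65 and 0.574). The same held for Gli2 (1.18 against 0.584 and 0.748) and Gli1 (2.57 against 1.15 and 0.989). The part of mesenchymal cells in the midbrain differences was not tested.

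Cell division markers moved with the same genes. From E12.5 to E14.5 the median level was 47.2 RPKM in the dorsal and 10.8 in the ventral midbrain for Mki67, and 95.5 and 18.3 for Top2a, both made in dividing cells. For Hes5, a Notch target of progenitors, it was 120 and 40.7. Of the other 4 progenitor markers, Fabp7 was higher in the ventral midbrain (761 against 296), and the medians of Sox2 were 48.9 and 57.8, of Nes 113 and 130 and of Vim 525 and 423 in the dorsal and ventral midbrain. Their part in the differences of Gli2, Gli3, Gas1, Boc and Cdon was not tested.

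In the alar plate the mesenchymal sum and Gas1 ran together at E13.5 and E14.5, in part at E11.5, and not at E12.5. At E11.5 replicates 2, 4 and 6 had sums of 4.37, 275 and 2.93 RPKM with Gas1 at 9.18, 59.2 and 31. At E14.5 replicates 2, 3 and 4 had sums of 2.07, 42.3 and 7.77 with Gas1 at 5.69, 8.21 and 6.11. At E13.5 replicate 4 had a mesenchymal sum of 2.01 RPKM with Gas1 at 3.6, and replicates 5 and 6 had sums of 95.8 and 74.5 with Gas1 at 8.17 and 8.97. At E12.5 the sums were 90.5, 3.83 and 21.6 with Gas1 at 6.83, 7.96 and 8.76, the highest sum beside the lowest Gas1. The part of these cells in the alar plate values was not tested.

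Gli3, the main repressor, had the widest range of levels of the 3 Gli factors at E12.5. At E12.5 the dorsal midbrain held 28.1, 25.2 and 18.6 RPKM, the alar plate 14, 13.8 and 4.39, the ventral forebrain 4.93, 3.89 and 1.33, the ventral hindbrain 2.01, 2.18 and 1.32, and the ventral midbrain 0.338, 0.438 and 0.408. The order of the 5 means was the reverse of that of Shh. The ventral midbrain libraries lay below all others, while the ventral hindbrain overlapped the ventral forebrain and the latter overlapped the alar plate.

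Gli3 was lower in the ventral than in the dorsal midbrain, with differences of -4.14 ± 0.38 (SE, log2 scale, limma adjusted p = 1.13e-05) at E12.5, -3.49 (adjusted p = 4.26e-07) at E13.5 and -3.27 (adjusted p = 2.56e-05) at E14.5. In the dorsal midbrain its mean was 33.7 ± 1.88 RPKM at E11.5, 23.9 ± 4.87 at E12.5, 20.8 ± 1.95 at E13.5 and 16.8 ± 3.61 at E14.5 (SD, n = 3). At E11.5 ventral midbrain replicate 4 held 15.2 RPKM of Gli3 beside 1.35 and 0.809 in the other libraries.

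Gli2, the main activator of the family, was also highest in the dorsal midbrain. At E12.5 it stood at 11, 11.6 and 8.42 RPKM in the dorsal midbrain and 0.237, 0.3 and 0.369 in the ventral midbrain, with 14 to 26 reads in each of the latter. Its difference between them was -3.11 ± 0.38 (SE, log2 scale, limma adjusted p = 0.000128) at E12.5, -2.53 (adjusted p = 1.04e-05) at E13.5 and -2.51 (adjusted p = 2.91e-05) at E14.5. In the ventral forebrain Gli2 was uneven, at 5.86, 1.61 and 0.53 RPKM at E12.5. The 4 dorsal markers summed to 34.2 RPKM in the last of these libraries and to 96.9 or more in the other 2, and their part in this spread was not tested.

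Gli1, a target of the pathway, did not follow the ligand. At E12.5 its mean was 4.47 ± 2.15 RPKM in the alar plate, 4.23 ± 3.76 in the ventral forebrain, 2.48 ± 0.63 in the ventral hindbrain, 1.39 ± 0.931 in the dorsal midbrain and 0.682 ± 0.0942 in the ventral midbrain (SD, n = 3). The ventral midbrain libraries, with the most Shh, held 0.674, 0.779 and 0.591 RPKM, and the ventral forebrain 8.53, 2.59 and 1.55. Dorsal midbrain libraries held 1.05, 0.678 and 2.44, overlapping the ventral midbrain. Alar plate libraries held 4.46, 2.31 and 6.62, the last being replicate 3, whose choroid plexus markers summed to 96.1 RPKM. The part of those cells in its Gli1 level was not tested.

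Between ventral and dorsal midbrain Gli1 differed by -0.44 ± 0.43 (SE, log2 scale, limma adjusted p = 0.487) at E12.5, by 0.26 (adjusted p = 0.289) at E13.5 and by -0.09 (adjusted p = 0.869) at E14.5. It was called in none of the 15 comparisons. Against the ventral forebrain and hindbrain the E12.5 difference for Gli1 was -1.22 (adjusted p = 0.0648). It passed without ventral forebrain replicate 3, at -1.42 with an adjusted p of 0.0266, and with a pseudocount of 0.1, at -1.91 with an adjusted p of 0.0351. It also passed in the fit without libraries that match another region better, at -1.22 with an adjusted p of 0.0423. At E14.5 Gli1 rested on 1 to 59 reads per library, so small differences were not detectable at this depth.

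A feature was called when its adjusted p (limma, Benjamini-Hochberg over all features tested) was below 0.05 and its log2 fold change at least 1 in size. Between ventral and dorsal midbrain at E12.5, 2 of the 9 genes were called higher in the ventral midbrain (Shh and Ptch1) and 4 lower (Gli2, Gli3, Gas1 and Boc). Of all 13733 features tested, 4.85% were called higher and 3.6% lower. At E13.5, 2 were higher and 5 lower, with Cdon added to the latter, where 6.39% and 4.07% of 13851 features were called. At E14.5, 2 were higher and 6 lower, with Smo added, where 7.27% and 4.27% of 14013 features were called. The median log2 difference over the 9 genes was -1.43, -2.1 and -2.18 at the 3 stages, beside -0.05, -0.01 and -0.05 over all features.

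At E11.5 only Gas1 (-3.82 ± 0.7, SE, limma adjusted p = 0.0326) and Cdon (-2.82 ± 0.57, adjusted p = 0.0435) were called lower in the ventral midbrain, and no gene of the 9 was called higher. Of 13802 features, 0.297% were called higher and 0.304% lower. Without ventral midbrain replicate 4 the count rose from 2 to 5. Without any other single library of these groups it was 0. Leaving out all libraries that matched another region better, 7 of the 9 genes were called. That alternative was chosen after seeing the data.

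**Figure D2:**
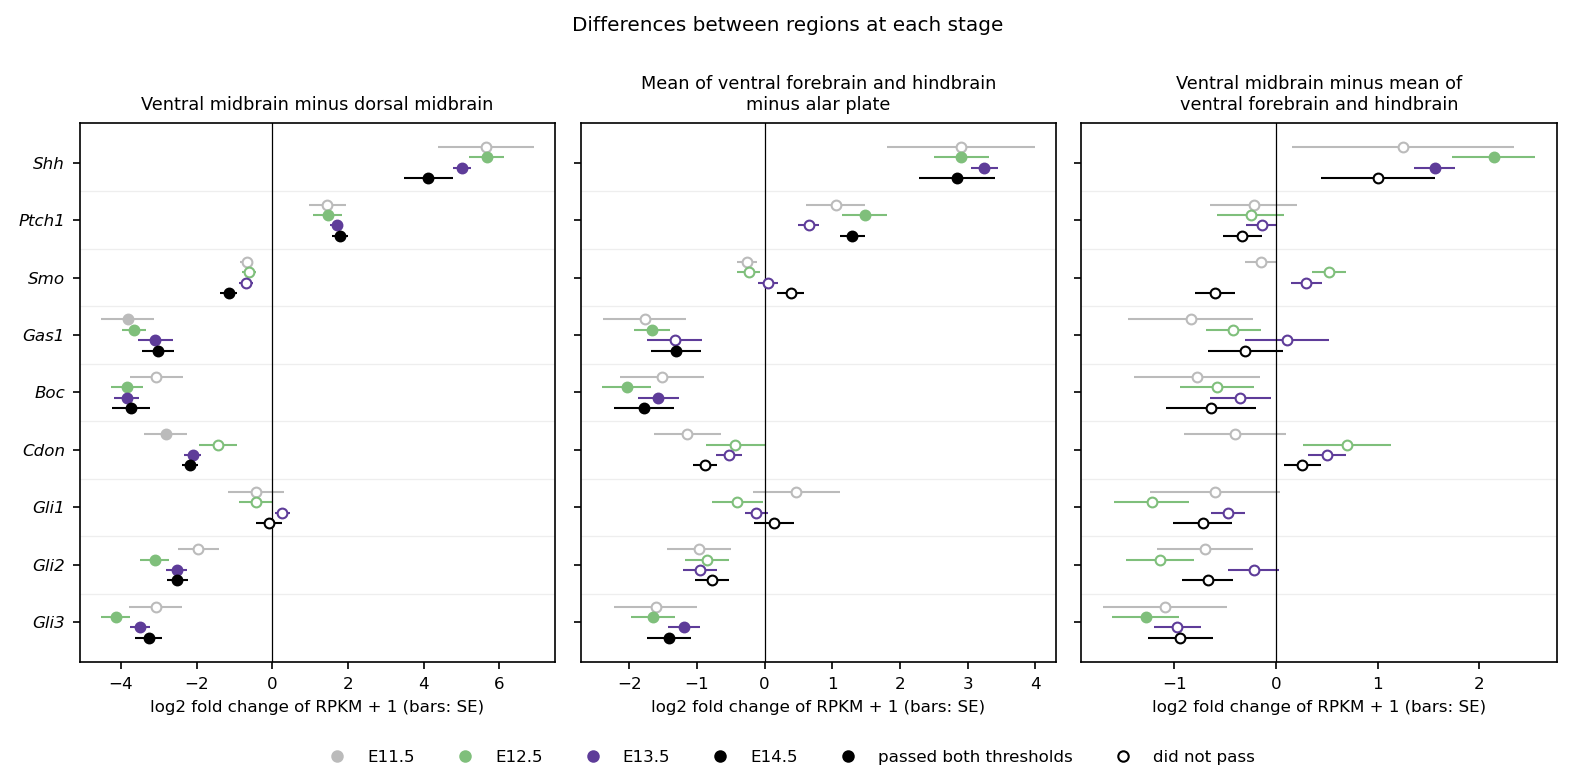
Difference on the log2(RPKM + 1) scale (horizontal axes) for each of the 9 genes in the 3 regional comparisons at each stage, with bars of 1 SE and filled points for called genes. Shh lies to the right and Gli3, Gas1 and Boc to the left of 0 in the midbrain comparison, at 5.67 and -4.14 for Shh and Gli3 at E12.5.

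The ventral midbrain was next compared with its ventral neighbours, taken as the mean of ventral forebrain and ventral hindbrain. At E12.5 Shh was higher in the ventral midbrain by 2.14 ± 0.41 (SE, log2 scale, limma adjusted p = 0.00549) and Gli3 was lower, at -1.28 ± 0.33 (adjusted p = 0.0331). Of all features 1.89% were called higher and 0.626% lower. Region markers were uneven among the ventral forebrain and hindbrain libraries, as given above, and their part in these differences was not tested. The Gli3 call was lost with voom (adjusted p = 0.0691), in a single fit of all 60 libraries (adjusted p = 0.0732) and when any 1 of 7 of the 9 libraries was left out, with adjusted p-values of 0.0546 to 0.138. The 2 libraries without which it held were replicate 3 of the ventral forebrain and replicate 3 of the ventral hindbrain. Gli2 differed by -1.14 (adjusted p = 0.0568). With the replicate number as a block, it was called, with an adjusted p of 0.0346 at the same difference. Without ventral forebrain replicate 3 Gli2 differed by -1.39 (adjusted p = 0.00568). Leaving out that library took the count of called genes from 2 to 4. Leaving out any of the 7 took it to 1.

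At E13.5 Shh remained higher, by 1.56 ± 0.2 (SE, limma adjusted p = 0.000226), and was the only one of the 9 called. Of all features 1.34% were called higher and 0.339% lower. In a single fit of all 60 libraries, where all stages share 1 estimate of spread, the limma adjusted p for Shh was 0.493 at E13.5 and 0.0702 at E12.5. With a pseudocount of 0.1 it was 0.0589 at E12.5. Gli3 differed by -0.97 (adjusted p = 0.0203), just under the limit, and passed it without ventral midbrain replicate 4 (-1.23, adjusted p = 0.00744) or ventral forebrain replicate 4 (-1.11, adjusted p = 0.0042).

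At E14.5 the Shh difference was 1.0 ± 0.56 (SE, adjusted p = 0.383). Ventral midbrain libraries at 10.9, 25.3 and 18.2 RPKM overlapped those of the ventral forebrain (6.67, 10.3 and 16.5) and ventral hindbrain (0.67, 17.9 and 10.9). Neither limma (0 of the 9 genes) nor voom on recovered reads (0) made a call, and the unadjusted p was below 0.05 for 4 genes. Of all features 0.949% were called higher and 0.45% lower. Without ventral forebrain replicate 2, Gli3 was called, at -1.14 with an adjusted p of 0.0472. At E11.5 limma called 0 of the 9 genes and voom 0, and the unadjusted p was below 0.05 for 0. There 0% of features were called higher and 0% lower.

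The ventral forebrain and hindbrain, which hold Shh at intermediate levels, were compared with the alar plate, which holds little. At E12.5 Shh (2.91 ± 0.41, SE, limma adjusted p = 0.00162) and Ptch1 (1.48, adjusted p = 0.0212) were called higher in the ventral regions. Gli3 (-1.65, adjusted p = 0.0134), Gas1 (-1.66, adjusted p = 0.00419) and Boc (-2.04, adjusted p = 0.0067) were called lower. Of all features 1.48% were called higher and 0.794% lower. Without alar plate replicate 3 the Ptch1 difference was 0.99 with an adjusted p of 0.0621. That library had the most Shh (2.24 RPKM) and Gli1 (6.62) and the least Ptch1 (4.43) and Gli3 (4.39) of its group. Its choroid plexus markers summed to 96.1 RPKM, against 0.185 and 0 in the other 2. The part of those cells in the result was not tested. All 3 alar plate libraries of this stage matched another region better, so no value without such libraries can be given.

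At E13.5 Shh was again higher, by 3.25 ± 0.2 (SE, limma adjusted p = 4.96e-07), and Gli3 (-1.19, adjusted p = 0.00774) and Boc (-1.57, adjusted p = 0.00628) were lower. Ptch1 differed by 0.65 (adjusted p = 0.0183), under the limit for calls. Of all features 0.758% were called higher and 0.693% lower. The Gli3 difference was -0.96 (adjusted p = 0.0575) without alar plate replicate 6. In the fit of all 60 libraries neither Gli3 (adjusted p = 0.265) nor Boc (adjusted p = 0.125) was called. Without ventral forebrain replicate 5 the count of called genes was 5 in place of 3, with Gli2 (-1.15, adjusted p = 0.000803) and Gas1 (-1.6, adjusted p = 0.0125) added. It was also 5 without alar plate replicate 4, with Gli2 at -1.18 (adjusted p = 0.0179) and Gas1 at -1.68 (adjusted p = 0.0392).

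At E14.5 Shh (2.85 ± 0.56, SE, limma adjusted p = 0.00564) and Ptch1 (1.3 ± 0.19, adjusted p = 0.000516) were called higher. Gli3 (-1.41, adjusted p = 0.0134), Gas1 (-1.31, adjusted p = 0.0499) and Boc (-1.78, adjusted p = 0.0233) were called lower. Of all features 1.57% were called higher and 0.885% lower. Ptch1 stood at 27.3, 24.8 and 25.6 RPKM in the ventral forebrain, 14, 22.4 and 22.8 in the ventral hindbrain and 12.1, 5.77 and 8.63 in the alar plate, with no overlap.

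The lower calls at E14.5 depended on single libraries and, for Gas1, on the settings. Gli3 lost its call without alar plate replicate 3 (adjusted p = 0.0905) or 4 (adjusted p = 0.0946). Boc lost it without those (adjusted p = 0.16 and 0.142), without ventral forebrain replicate 2 (0.0503), or without ventral hindbrain replicate 3 (0.0565) or 4 (0.0525). Gas1 lost it without any 1 of 7 libraries, with adjusted p-values of 0.0619 to 0.222. It also lost it with a pseudocount of 0.1 (0.0543), without a filter (0.0834), with a replicate block (0.063) and in the fit of all 60 libraries (0.0827). Leaving out replicate 3 of the ventral forebrain or replicate 2 of the ventral hindbrain kept the call. Ventral hindbrain replicate 2, with dorsal markers at 103 RPKM, held 10.4 RPKM of Boc against 2.83 and 2.27.

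At E11.5 this comparison gave 0 calls among the 9 genes with limma and 0 with voom, the unadjusted p was below 0.05 for 6, and 0% of features were called higher and 0% lower. All 3 alar plate and all 3 ventral forebrain libraries of that stage matched another region better.

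From E12.5 to E14.5, averaged over the 5 regions, limma called 0 of the 9 genes and voom 0, and the unadjusted p was below 0.05 for 3. Of 14692 features 0.381% were called higher and 0.476% lower. Shh differed by -0.55 (adjusted p = 0.22) and Ptch1 by -0.41 (adjusted p = 0.0346). The change of Shh over these days in the ventral midbrain, minus that in the dorsal midbrain, was -1.54 ± 1.17 (SE, adjusted p = 0.775). For this difference of changes limma called 0 of the 9 genes and voom 0, and the unadjusted p was below 0.05 for 0, with 0.0681% of features higher and 0.0272% lower. For the same difference between the mean of ventral forebrain and hindbrain and the alar plate, limma called 0 and voom 0, and the unadjusted p was below 0.05 for 1 (Smo, 0.62 ± 0.25, limma adjusted p = 0.187). There 0.0953% of features were higher and 0.0136% lower. A change of Shh in the ventral midbrain alone was described above and has no test of its own.

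Target and repressor were also set against each other within a library. The log2 ratio of Ptch1 to Gli3, each as RPKM + 1, averaged 4.17 ± 0.02 in the ventral midbrain at E12.5, 3.41 ± 0.25 in the ventral hindbrain, 2.86 ± 0.57 in the ventral forebrain, 0.01 ± 0.18 in the alar plate and -1.44 ± 0.97 in the dorsal midbrain (SD, n = 3). The ventral midbrain libraries, at 4.15 to 4.19, were above all others of that stage, and the alar plate and dorsal midbrain were below all ventral libraries. Later the means kept that order, but the ventral midbrain was no longer apart from the other ventral libraries. The ventral midbrain stood at 3.34 ± 0.53 at E13.5, the ventral hindbrain at 2.86 ± 0.09 and the ventral forebrain at 2.17 ± 0.8, and libraries of both overlapped the ventral midbrain. At E14.5 the 3 stood at 3.35 ± 0.41, 2.78 ± 1.02 and 2.7 ± 0.75, again with overlap. The dorsal midbrain stood at -1.85 ± 0.35 at E13.5 and -1.72 ± 0.44 at E14.5.

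For the log2 ratio of Gli1 to Gli3, the dorsal midbrain lay below all ventral libraries at every stage, narrowly at E11.5 (at most -2.56, against -2.41). At E12.5 it averaged 0.27 ± 0.08 in the ventral midbrain, 0.29 ± 0.25 in the ventral hindbrain and 0.12 ± 0.56 in the ventral forebrain. It was -1.04 ± 1.38 in the alar plate and -3.43 ± 0.8 in the dorsal midbrain (SD, n = 3). Alar plate replicate 3, at 0.5, overlapped the ventral libraries of that stage, and the ventral regions overlapped each other. At E13.5 the ventral midbrain, at 0.34 to 0.38, lay above every ventral forebrain and ventral hindbrain library (at most 0.27 and 0.28). Gli1 was not called between ventral and dorsal midbrain, so there this ratio largely restates the Gli3 difference. In the ventral midbrain at E12.5 the means of Gli1 (0.682 RPKM) and Gli3 (0.395) were below the pseudocount of 1 RPKM. That pulls the ratio toward 0 and narrows its spread.

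**Figure D3:**
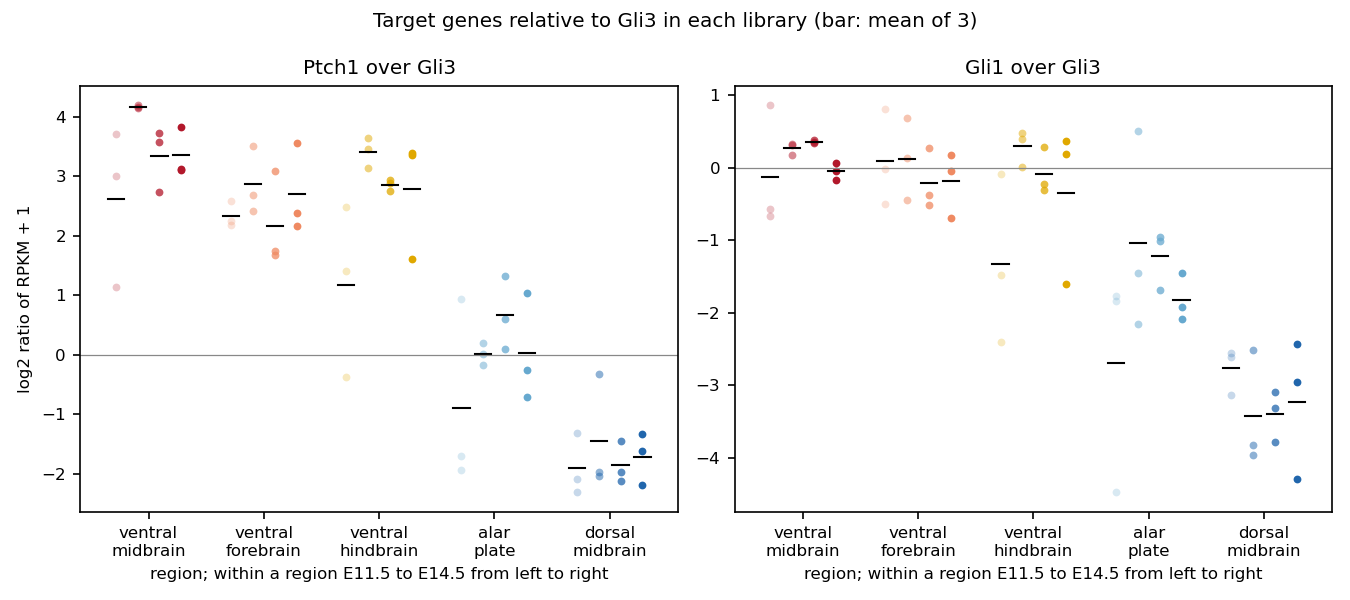
Log2 ratio of Ptch1 to Gli3 and of Gli1 to Gli3 (vertical axes, each gene as RPKM + 1) by region and embryonic stage in days, with 1 point per library. For Ptch1 over Gli3 the ventral midbrain is at 4.17 and the dorsal midbrain at -1.44 at E12.5.

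Across the 15 group means of E12.5 to E14.5 (log2(RPKM + 1)), which share regions and stages, the level of Shh had a Pearson correlation of 0.84 with Ptch1, -0.95 with Gli3, -0.91 with Boc, -0.89 with Gas1 and -0.86 with Gli2. It was -0.64 with Cdon, -0.27 with Smo and -0.09 with Gli1. Among the genes opposite to Shh, Gas1 and Boc had a correlation of 0.99 and Gli2 and Boc of 0.97. These are descriptions over group means that are not independent.

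**Figure D4:**
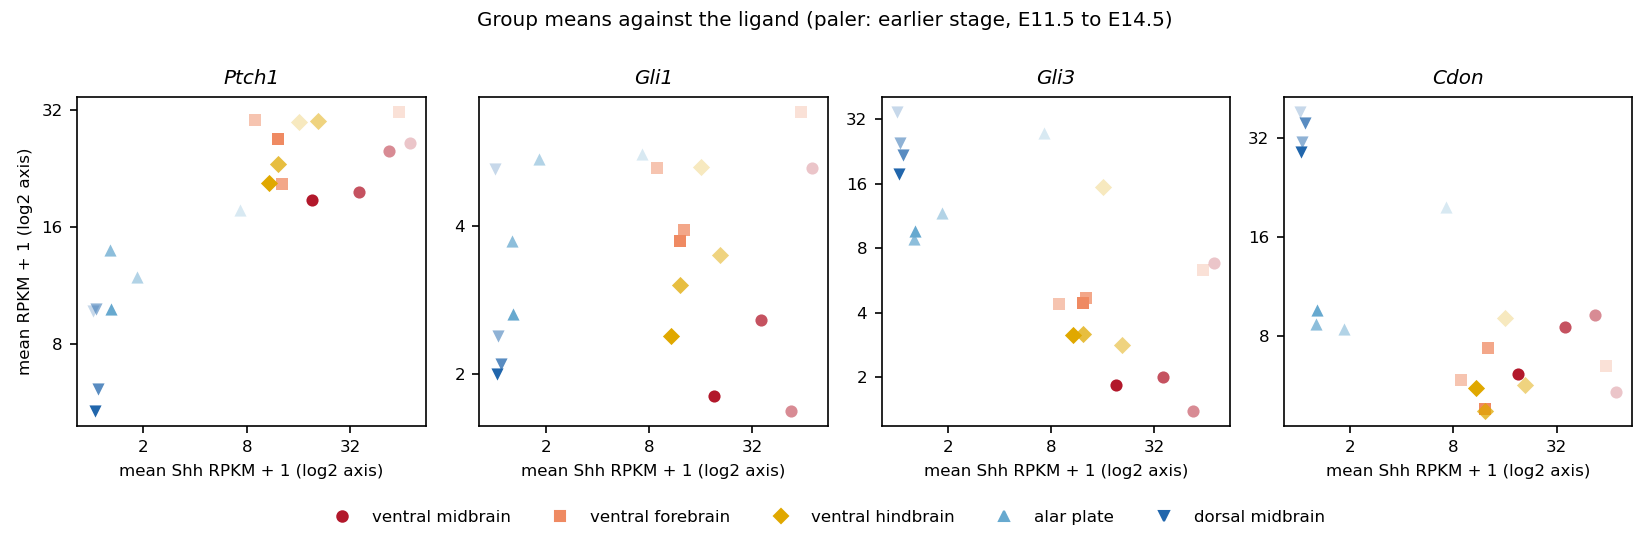
Mean level of Ptch1, Gli1, Gli3 and Cdon (vertical axes, RPKM on log scales) against that of Shh (horizontal axes) in the 20 groups, marked by region and stage. Correlations with Shh over the groups of E12.5 to E14.5 were taken on means of log2(RPKM + 1), not on the plotted means. They are 0.84 for Ptch1, -0.09 for Gli1, -0.95 for Gli3 and -0.64 for Cdon.

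Among 10720 features over the 60 libraries, the patterns most like that of Shh were those of Foxa1 (Pearson r = 0.941), a forkhead factor of the floor plate, Ntn1 (0.915), the guidance cue netrin 1, Efcab1 (0.904), Spon1 (0.901), which encodes the floor plate protein F-spondin, and Igfbp5 (0.889). Ptch1 came at rank 56 (0.745), and without E11.5 at rank 183 (0.758). The patterns most like that of Gli3 were those of Boc (0.941), Gli2 (0.907), Gas1 (0.907), Txlnb (0.906) and Fam181a (0.878), of which 3 belong to the 9 genes. Without E11.5 only Boc (0.944) of the 9 was among the first 5, with Gas1 at rank 7 (0.898) and Gli2 at rank 21 (0.875). For Gli1 the highest correlations were lower, those of Srd5a3 (0.633), Tstd3 (0.632), Hmga2 (0.631), Fech (0.62) and Fam172a (0.614). Without E11.5 the highest for Gli1 were Bcl2l1 (0.808) and Tstd3 (0.711). Libraries of a group share region, stage and prefix. Without E11.5, 3 of the 5 neighbours of Shh, 1 of those of Gli1 and 2 of those of Gli3 stayed among the first 5.

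Genes that carry the signal from Smo to the Gli factors were not called. They are 12 genes that act inside the cell or in the cilium, such as the Gli inhibitor Sufu and the kinesin Kif7. In each of the 15 comparisons limma called 0 of the 12 and voom 0, and the unadjusted p was below 0.05 for 0 to 9 of them. The 9 came from E14.5 against E12.5, where 7870 of 14692 features had such a p. Of all features, at most 7.27% were called higher and 4.27% lower in any comparison. With such shares, 0 calls among 12 genes do not set them apart from other features. Their median difference between ventral and dorsal midbrain at E12.5 was 0.04, beside -0.05 over all features. Of 7 genes of the ligand side, 5 passed the filter on low values in that comparison. Scube1, which helps release of the ligand, was called higher in the ventral midbrain at E12.5 (1.34) and E13.5 (1.25). It was named after its values were seen.

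Of 7 further genes that take part in reception, 3 were called lower in the ventral than in the dorsal midbrain at E12.5: Lrp2 (-1.51), a ligand-binding endocytic receptor, Gpc3 (-2.87), a glypican that binds the ligand, and Evc (-1.1), a ciliary partner of Smo. These 3 were named after their values were seen. Another 1 of the 7 was called higher. Of all features 4.85% were called higher and 3.6% lower. The median over the 7 was -0.53, beside -0.05 over all features. Gpc3 was 33.6 RPKM in the ventral midbrain library with the high mesenchymal sum at E13.5, and between 1.07 and 1.5 in the ventral midbrain at E12.5.

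Genes known to be induced by the signal in ventral progenitors were counted as well. Of 6, 5 were called higher in the ventral than in the dorsal midbrain at E12.5, 6 at E13.5 and 5 (of 5 tested) at E14.5, with medians of 2.78, 3.14 and 2.52 beside -0.05, -0.01 and -0.05 over all features. Of all features 4.85%, 6.39% and 7.27% were called higher at these stages. Foxa2 was higher by 6.21 ± 0.78 (SE, log2 scale, limma adjusted p = 0.000154) and Nkx2-2, a homeodomain factor, by 2.39 ± 0.2 (adjusted p = 5.71e-06) at E12.5. Of 6 genes known to be repressed by it, 4 were lower at E12.5, among them Dbx1 (-5.64 ± 0.34, adjusted p = 3.19e-07) and Pax3 (-5.24 ± 0.44, adjusted p = 5.66e-06). At E13.5, of 5 tested, 3 were lower and 1 higher, and at E14.5, of 6, 3 were lower and 2 higher. Of all features 3.6%, 4.07% and 4.27% were called lower at the 3 stages. The higher genes were Pax6 (2.01 at E13.5 and 1.72 at E14.5) and Dbx2 (1.12 at E14.5), named after their values were seen. Foxa2, Pax3 and Pax7 also serve as region markers here, so their direction is no independent evidence.

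Within ventral tissue these targets did not all follow the ligand. Against the ventral forebrain and hindbrain at E12.5, Nkx2-9 was higher in the ventral midbrain (1.59 ± 0.28, SE, limma adjusted p = 0.00322), while Nkx2-2 was lower (-1.12 ± 0.18, adjusted p = 0.0014). The Nkx2-2 call was lost with a pseudocount of 0.1 and in the fit of all 60 libraries. At E13.5 Foxa2 (4.34 ± 0.25, adjusted p = 1.63e-07) and Nkx6-1 (1.56 ± 0.17, adjusted p = 6.64e-05) were higher there. In the comparison of ventral forebrain and hindbrain with the alar plate, Olig2 was higher by 1.91 ± 0.25 (adjusted p = 0.000484) at E13.5 and 2.06 ± 0.3 (adjusted p = 0.000527) at E14.5. In the fit of all 60 libraries the E13.5 calls of Nkx6-1 (adjusted p = 0.234) and Olig2 (adjusted p = 0.114) were lost.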

How the data were processed

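The table deposited by the authors holds RPKM: reads over the transcript length it lists, in kilobases, scaled to 1000000 assigned reads per library. This was read from the values. Bowtie and mm10 are named in the submitters' processing notes. For its version, the counter, annotation, filters and strand, nothing is given in the sources used here. Values were whole reads within 0.001 for 100.0% of entries. All 24378 features were kept, with 2 repeated names.

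Here limma 3.58.1 (R 4.3.3) with a mean-variance trend was fitted to log2(RPKM + 1), over features with a mean of at least 1 RPKM in any group, with Benjamini-Hochberg adjustment over all features tested. Regional comparisons used the 15 libraries of a stage, and changes over stage all 60. A fold change on this scale understates that of low genes. The comparison of the ventral and dorsal midbrain at E12.5 was tested on simulated data over 13336 genes. Of 200 genes changed 4-fold, 100% were recovered, with 5 false calls. The simulated libraries had a fixed spread, no outlying library and no regional difference but these changes. Genes with a low mean were not among those changed. The recovery therefore does not give the power in the real libraries. The lowest chi-square per feature between replicates was 1.12, above counting noise alone.

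The 9 genes and the lists were chosen with earlier results of these data known. Named in every comparison were the 9 genes, up to 4 called pathway genes with the smallest adjusted p, and the 5 features most correlated with Shh, Gli1 and Gli3; some genes of the lists are not reported here. Reads without molecular identifiers are not independent molecules, so a limit of 3 reads for a count of 0 covers counting error only. Alternatives were a pseudocount of 0.1, no filter, median-of-ratios scaling, voom on recovered reads, a replicate block, 1 fit of all 60 libraries, and leaving out each library. At E12.5, libraries of the 3 ventral regions with the same replicate number deviated together (r of 0.233 to 0.385), a pairing that comes from the data and not from the labels.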

Additional observations from a re-analysis of the deposited data

How the results depend on the processing

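Of 2223 alternative values for the 9 genes, 2125 kept their direction and their side of the threshold, 56 lost a call, 42 gained one and 0 reversed. Median-of-ratios scaling moved the median of all features by at most 0.06. The cause of the changes below was not tested.

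The count of called genes moved by over 1.5 times as follows. Between ventral and dorsal midbrain at E11.5 (2 called) it was 1 with a pseudocount of 0.1, 1 without a filter, 0 with voom, 0 with the replicate block, 7 in the fit of all 60 libraries, 7 without libraries that match another region better, and 0 to 5 leaving out single libraries. Between the ventral midbrain and its ventral neighbours at E12.5 (2 called) it was 1 with voom, 1 in the fit of all 60 libraries and 1 to 4 leaving out single libraries. At E13.5 (1 called) it was 2 with a pseudocount of 0.1, 2 with voom, 0 in the fit of all 60 libraries and 1 to 2 leaving out single libraries, and at E14.5 (0 called) 0 to 1. Between ventral forebrain and hindbrain and the alar plate it was 5 with voom, 1 in the fit of all 60 libraries and 2 to 5 leaving out single libraries at E13.5 (3 called), and 2 to 6 leaving out single libraries at E14.5 (5 called).

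Same-numbered libraries of a stage deviated together (r above 0.1) in 10 of 30, 18 of 30, 21 of 30 and 12 of 30 pairs from E11.5 to E14.5. Every pair did so among the 3 ventral regions at E12.5. The main fits used no pairing there either, and the replicate block was run as an alternative. In the other regional comparisons with a call among the 9 genes at least 1 pair did not. The replicate block gave 7 called genes in place of 6 for the midbrain comparison at E12.5 and 3 in place of 2 for the ventral neighbours at E12.5. It gave 4 in place of 5 for the alar plate comparison at E14.5.

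Counts over all features moved more. For the midbrain comparison at E11.5, 83 became 47 with voom, 27 with the replicate block, 736 in the fit of all 60 libraries, 856 without libraries that match another region better and 5 to 173 leaving out single libraries; at E13.5, 1449 became 2211 with voom. For the ventral neighbours, 0 became 57 (60 libraries) at E11.5, 232 became 374 (pseudocount), 361 (voom) and 143 (60 libraries) at E13.5, and 196 fell to 125 without 1 library at E14.5. For the alar plate, 0 became 19 (60 libraries) at E11.5, 312 became 514 (pseudocount) and 194 to 672 (single libraries) at E12.5, 201 became 312 (pseudocount), 320 (voom) and 121 (60 libraries) at E13.5, and 344 became 689 (voom) at E14.5. For stage, 126 became 572 (pseudocount) and 639 (voom). The differences of changes went from 14 to 1 (pseudocount), 0 (voom), 22 (block) and 85 (without libraries that match another region better), and from 16 to 2 (voom) and 4 to 394 (single libraries). No fit without such libraries was made for the alar plate at E12.5, where all 3 would leave. Shh in the dorsal midbrain and Gli1 at E14.5 are limited by depth.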
